A study of Mus musculus with 9 samples.

Results

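The immunoglobulin heavy chain locus (Igh) and the immunoglobulin kappa light chain locus (Igk) were followed through chromatin contact maps of mouse CD4+ CD8+ thymocytes, cells that rearrange T cell receptor genes and not, to completion, these loci. Igh was taken as chr12:113200000-116050000 (2.85 Mb) and Igk as chr6:67500000-70750000 (3.25 Mb) of GRCm38. Every listed interaction with the midpoint of either anchor in one of these windows and both anchors on that chromosome was a member. There were 4579 such interactions among the 4560397 listed in the 10 tables, 3371 at Igh and 1208 at Igk. The windows were set by position, and no measured value entered that rule, though they were chosen with earlier results of these data known.

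The maps came from HiChIP, a proximity ligation assay in which ligated chromatin is enriched with an antibody before sequencing. The antibody was against H3K27ac, acetylated histone found at regulatory elements in use, or against Smc1, a subunit of cohesin. The 5 groups were H3K27ac in NOD/ShiLtJ (NOD, 2 biological replicates), H3K27ac in C57BL/6J (BL6, 2 biological replicates), Smc1 in (NOD/ShiLtJ X C57BL/6) F1 mice (1 library), Smc1 in NOD (2 technical replicates of 1 biological replicate) and Smc1 in BL6 (2 technical replicates of 1 biological replicate). No treatment, transgene or deletion is named for any group, and all cells were sorted as CD4+ CD8+. NOD is the inbred strain that develops autoimmune diabetes, and BL6 is the strain of the reference genome. The H3K27ac libraries were placed in that group by their antibody label, since their titles name Smc1. Replicate numbers follow the labels, and the deposited Smc1 NOD tables are numbered 2 and 3 where the labels have 1 and 2, so which of the pair is replicate 1 is uncertain. NOD reads were placed through a NOD genome and BL6 reads through the reference genome, so strain and mapping genome cannot be told apart, and the F1 library was deposited on both. The tables list only pairs supported by at least 2 read pairs, at Q no higher than 0.05 and spanning up to 2 Mb, so a pair that is not listed lay under that limit and was not measured as absent. The H3K27ac libraries listed 404343 to 1283674 read pairs and the Smc1 libraries 837034 to 2971366, ranges that overlap. The immunoglobulin windows took 0.0564% to 0.170% of them. With bulk cells, contacts made in fewer cells and contacts made less often in every cell cannot be told apart, and for Smc1 the spread between replicates is technical.

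In B cell precursors the RAG recombinase joins one V, one D and one J segment at Igh, and one V and one J segment at Igk, upstream of the constant region genes. The V segments are spread over megabases, and cohesin, which extrudes loops until it meets CTCF, brings distant V segments to the recombination centre at the J segments. On the constant-gene side of Igh, beyond Igha, lie an enhancer cluster and an array of CTCF sites that bound the locus. At Igk the interval between V and J carries CTCF-bound elements, and enhancers lie in the J to constant intron and beyond Igkc. Both loci are known to be held away from V to DJ or V to J joining in T lineage cells. On the reference map Igha and Igkc mark the opposite ends of their windows: Igh runs from Igha at low coordinates to the distal V segments at high coordinates, and Igk from the distal V segments at low coordinates to Igkc at high coordinates.

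The gene starts under listed anchors at the edges of the loci are shown because ligation in this assay needs an MboI cut, at GATC, and because these starts were the ones listed in the most libraries at Igk, with the Zfp386 start for the V end of Igh. The capitals mark GATC, and each sequence runs from 250 bases before to 50 bases after the annotated start (RefSeq, GRCm38.p6), in the direction of transcription.
Gm46961, chr6:70718827-70719126, minus strand: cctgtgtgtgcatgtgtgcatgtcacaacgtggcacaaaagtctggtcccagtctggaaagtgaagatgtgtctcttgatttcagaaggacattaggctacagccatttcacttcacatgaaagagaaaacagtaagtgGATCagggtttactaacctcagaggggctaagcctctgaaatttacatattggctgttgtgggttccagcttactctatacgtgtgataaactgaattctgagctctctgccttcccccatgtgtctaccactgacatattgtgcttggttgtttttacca
Gm30211, chr6:70728963-70729262, plus strand: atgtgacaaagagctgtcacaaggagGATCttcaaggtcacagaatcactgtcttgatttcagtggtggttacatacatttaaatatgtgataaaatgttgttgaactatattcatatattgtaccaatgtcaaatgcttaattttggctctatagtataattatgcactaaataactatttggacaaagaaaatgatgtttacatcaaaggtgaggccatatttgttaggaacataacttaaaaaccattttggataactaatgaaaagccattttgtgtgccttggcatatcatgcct
Rpia, chr6:70792126-70792425, minus strand: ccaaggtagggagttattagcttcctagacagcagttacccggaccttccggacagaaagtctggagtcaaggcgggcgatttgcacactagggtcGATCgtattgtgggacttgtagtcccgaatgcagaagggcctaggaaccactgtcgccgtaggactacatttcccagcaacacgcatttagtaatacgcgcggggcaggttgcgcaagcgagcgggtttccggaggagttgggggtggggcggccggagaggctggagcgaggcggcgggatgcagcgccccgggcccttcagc
Zfp386, chr12:116047474-116047773, plus strand: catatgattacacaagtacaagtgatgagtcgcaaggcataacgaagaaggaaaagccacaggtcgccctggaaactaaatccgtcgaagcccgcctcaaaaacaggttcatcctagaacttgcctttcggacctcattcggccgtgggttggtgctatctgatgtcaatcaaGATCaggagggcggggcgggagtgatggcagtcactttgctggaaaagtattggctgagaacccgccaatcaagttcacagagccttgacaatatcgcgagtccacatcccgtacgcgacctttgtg

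Each of the 4 starts held 1 GATC, a match that 48.0% of 32851 promoters of the same length held. Searched on both strands, AGGNGGC, the core of the CTCF motif and held by 29.4% of promoters, was found once, in the Rpia start, where it does not overlap GATC. None of the 4 held TATAAA (13.6%) or ATGCAAAT (1.74%), the octamer of immunoglobulin promoters. Gm46961, a gene model between the V segments and Igkj1, lay under anchors with 0 and 7 read pairs in H3K27ac NOD, 0 and 11 in H3K27ac BL6, 4 in Smc1 F1, 7 and 2 in Smc1 NOD and 0 and 6 in Smc1 BL6. Gm30211, a gene model beyond Igkc, had 0 and 6, 3 and 0, 0, 15 and 2, and 5 and 5 read pairs in the same order of groups. Both were thus listed in 6 of 9 libraries and with both antibodies. Rpia encodes ribose 5-phosphate isomerase of the pentose phosphate pathway. Its start had 17 and 6 read pairs in H3K27ac NOD and 0 and 9 in H3K27ac BL6. With Smc1 it had none in F1, 2 and 0 in NOD and 3 and 0 in BL6. That start lies beyond the Igk window, and its counts are not limited to contacts with Igk. The whole Rpia gene shared only 3 and 0 read pairs with Igk in H3K27ac NOD. Zfp386, a zinc finger gene at the V end of Igh, had 5 and 0, 0 and 4, 0, 4 and 0, and 0 and 0. Of the annotated gene starts in a window or within 150 kb of it, 10 of 19 at Igh and 9 of 10 at Igk lay under a listed anchor.

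Igh held more contact than Igk in every library. Both held less than the median 3 Mb tile of the genome, except Igh in the Smc1 F1 library. Counts were divided by the length of the window and by the listed read pairs of the library, giving read pairs per 1000000 listed read pairs (RPM) per Mb. Igh had 161 and 249 read pairs in H3K27ac NOD, 145 and 182 in H3K27ac BL6, 506 in Smc1 F1, 202 and 168 in Smc1 NOD and 247 and 208 in Smc1 BL6. The F1 library was the highest of the 9, and the other Smc1 libraries overlapped with the H3K27ac ones. Igk had 32.0 and 24.0 in H3K27ac NOD, 61.2 and 30.7 in H3K27ac BL6, 80.1 in Smc1 F1, 61.4 and 96.2 in Smc1 NOD and 82.9 and 81.2 in Smc1 BL6. At Igk every Smc1 library lay above every H3K27ac library, by as little as 61.4 against 61.2. The genome, cut into 840 tiles of 3 Mb, had medians of 235 to 412 in H3K27ac libraries and 438 to 473 in Smc1 libraries. Igh stood at 0.355 to 0.699 times the median tile in 8 libraries and at 1.13 times in F1, while Igk stood at 0.0674 to 0.203 times in all 9. Anchors were also sparse. Igh had 16.8 to 58.2 anchors per Mb in H3K27ac libraries and 64.6 to 108 in Smc1 libraries, Igk had 4.00 to 13.2 and 26.5 to 65.2, and the tiles had 43.7 to 136 and 115 to 203. The read count the authors list per anchor had a median at Igh of 0.782 to 0.972 times that of all anchors of the library, and at Igk of 0.633 to 0.898 times.

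Within a library, Igh exceeded Igk by 1.95 ± 0.82 on the log2 scale of read pairs per Mb (SD, n = 9), higher in 9 of 9 libraries, from 1.74-fold in the second Smc1 NOD library to 10.2-fold in the second H3K27ac NOD library. An exact sign-flip permutation test over the libraries gave p = 0.0039 (two-sided), the smallest p that 9 libraries allow. With the technical replicates of Smc1 averaged, the 7 samples gave 2.12 and an exact permutation p of 0.0156, again the smallest possible. The T cell receptor loci served for comparison: Tcrb, which is rearranged before this stage, and Tcra, which is rearranged at it. Igh exceeded Tcra, the alpha and delta receptor locus, by 1.90 ± 0.72 (9 of 9 libraries). It lay below Tcrb, the beta receptor locus, by a difference of -0.90 ± 0.53 (9 of 9). Each had an adjusted p of 0.0052 over 4 pairs by the exact permutation test. A read pair counted once per window here, also when both anchors lay inside. By anchor ends, F1 went the other way, with 823 RPM per Mb at Igh against 709 at Tcrb. The other libraries kept Igh below Tcrb by ends, such as the first Smc1 BL6 library with 398 against 437. Igk lay below Tcrb, at -2.85 ± 0.69 (9 of 9 libraries; exact permutation test, adjusted p = 0.0052). Igk and Tcra could not be separated: the difference was -0.05 ± 1.06, with Igk higher in 5 of 9 libraries (exact permutation test, adjusted p = 0.87). With the technical replicates averaged, the 7 samples gave 1.97 for Igh minus Tcra, -0.92 for Igh minus Tcrb and -3.04 for Igk minus Tcrb, each with an adjusted exact permutation p of 0.0208. For Igk minus Tcra they gave -0.15 (exact permutation test, adjusted p = 0.69).

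**Figure D1:**
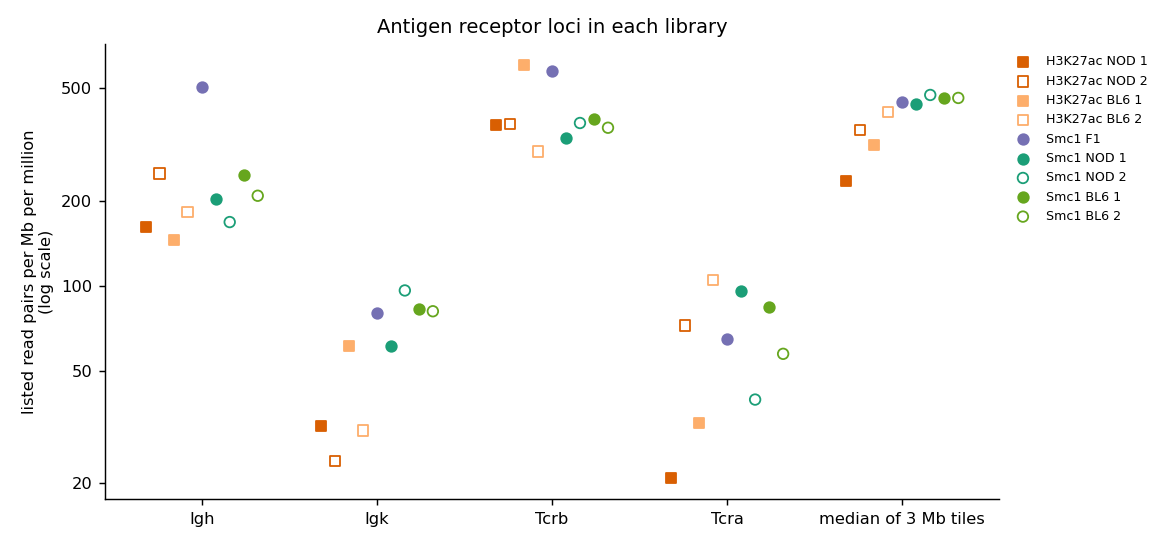
Listed read pairs in RPM per Mb (log axis) at Igh, Igk, Tcrb, Tcra and the median 3 Mb tile in each of the 9 libraries; squares are H3K27ac, circles Smc1, filled marks replicate 1 and open marks replicate 2. Igh lies above Igk in every library, and Smc1 F1 stands at 506 at Igh.

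Per Mb, contact at Igh was densest at the constant-gene end. Ends of listed pairs were counted in RPM per Mb in 7 stretches of the locus. By number, the longer V stretches could hold more ends. In Smc1 F1 the proximal and distal V segments held 584 and 824 ends. The 3' side of Igha and the constant genes held 101 and 288 there. In the first H3K27ac NOD library these V stretches held 24 and 12, against 39 and 139. The 56.2 kb on the 3' side of Igha had a median of 2246 ends in H3K27ac libraries (1317 to 3209, n = 4) and 1240 in Smc1 libraries (560 to 2147, n = 5). The constant genes, which encode the antibody classes, had medians of 1798 (1118 to 2164) and 1615 (1162 to 2066) with the same antibodies. The distal V segments, the most remote 1658 kb, had 62.5 (12.5 to 179) with H3K27ac and 149 (108 to 594) with Smc1. The constant genes thus lay above the distal V segments in all 9 libraries without overlap. The D to V interval had 239 ends with H3K27ac (0 to 590) and 868 with Smc1 (433 to 2124), and the proximal V segments 168 (76.2 to 225) and 417 (328 to 896), the H3K27ac and Smc1 ranges over the proximal V segments not overlapping. The J and D segments had 731 (179 to 821) and 336 (81.5 to 758), with wide overlap.

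In bins of 100 kb, the bin from 113200001, with Igha, Ighe and Ighg2c, was the highest with H3K27ac, at 83 and 131 read pairs in NOD and 114 and 154 in BL6. With Smc1 it had 160 read pairs in F1, 232 and 123 in NOD and 259 and 393 in BL6. The next bin, with Ighg2b, Ighg1 and Ighg3, had 54 and 79 in H3K27ac NOD and 45 and 115 in H3K27ac BL6, then 148 in Smc1 F1, 163 and 236 in Smc1 NOD and 241 and 418 in Smc1 BL6, and led the Smc1 ranking on the mean RPM. The other bins in the top 5 of both antibodies were the bin from 113500001, where the D segments give way to Adam6a, a testis gene within the locus, and Ighv5-1 to Ighv5-4, and the last bin, which runs past Igh to Zfp386 and Vipr2. The counts of that last bin include anchors beyond the window. It had 151 read pairs in the first Smc1 NOD library and 13 in the first H3K27ac NOD library. The 5' side of V, the last stretch inside the window, held 22 and 7 ends there. The H3K27ac top 5 was completed by the bin with Ighm and the J and D segments. The Smc1 top 5 was completed by the bin from 114200001 with Ighv7-4, Ighv3-4 and Ighv13-1. Of the 29 bins, 10 were listed in all 4 H3K27ac libraries and 3 in none of them, against 27 bins listed in all 5 Smc1 libraries and 0 in none.

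**Figure D2:**
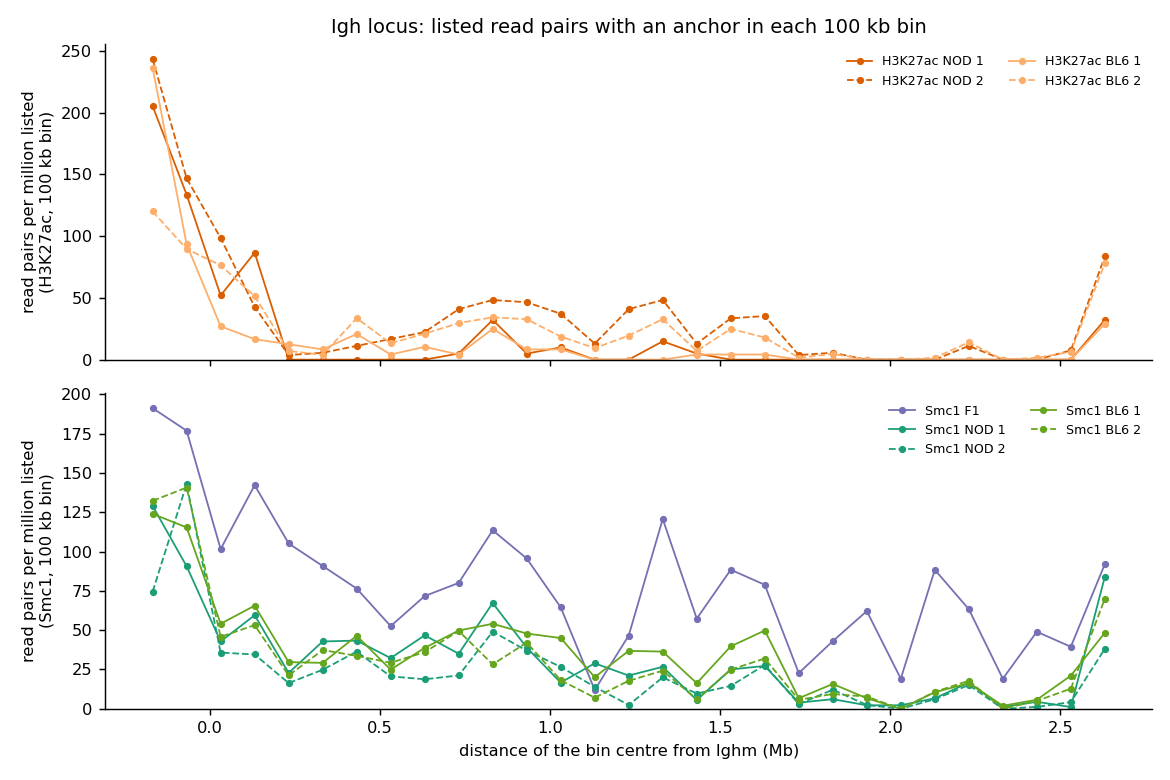
Read pairs in RPM in 100 kb bins along Igh, by distance of the bin centre from Ighm in Mb, with the H3K27ac libraries above and the Smc1 libraries below, 1 line per library and replicate 2 dashed. The highest bins of both antibodies lie at the constant-gene end on the left, and the F1 line lies above the other Smc1 lines in 28 of 29 bins.

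Gene segments at Igh followed this profile in part. All 8 constant genes lay within 1 kb of a listed anchor in at least 1 library, and 7 or 8 did in each library. All 4 J segments were listed, though in neither NOD H3K27ac library and in neither the second Smc1 NOD nor the second Smc1 BL6 library. Among V segments, 64 of 121 functional ones and 45 of 63 pseudogenes were listed in at least 1 library, with 2 to 23 functional segments per H3K27ac library and 22 to 34 per Smc1 library. The segment families differed in coverage. Listed were 11 of 11 Ighv2, 8 of 8 Ighv3 and 17 of 21 Ighv5 segments, families that lie within the proximal V stretch. In Ighv1 42 of 92 were listed, all in the distal stretch, which was set to begin at the first Ighv1 segment. Coverage did not follow position throughout: Ighv14, also proximal, had 0 of 4 listed, and Ighv6, mostly distal, had 6 of 7. Segments of a family share sequence, and short reads that fit several copies may be lost or misplaced, so family counts are uncertain. Ighd5-1, a D pseudogene at the V side of the D cluster, was listed in all 9 libraries, as were constant genes. It had 13 and 19 read pairs in H3K27ac NOD and 8 and 17 in H3K27ac BL6. With Smc1 it had 20 in F1, 6 and 8 in NOD and 19 and 27 in BL6. Ighv2-1, a V pseudogene at the proximal edge, was listed with 14 read pairs in 1 H3K27ac BL6 library and in all Smc1 libraries, with 7 in F1, 22 and 16 in NOD and 30 and 29 in BL6.

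Few contacts at Igh recurred across libraries. Of 1778 pairs of 25 kb bins listed with Smc1, 311 were listed in 2 or more of the 5 libraries, 61 in 3 or more and 2 in all. The pair of chr12:113200001-113225000, on the 3' side of Igha, with chr12:113575001-113600000, at the D side of the proximal V stretch and holding Ighv5-2, Ighv2-2, Ighv5-3 and Ighv5-4, was listed in all 5 Smc1 libraries. It had 3 and 0 read pairs in H3K27ac NOD, 0 and 5 in H3K27ac BL6, 12 in Smc1 F1, 13 and 5 in Smc1 NOD and 10 and 10 in Smc1 BL6. It thus carried 50 Smc1 read pairs and was listed in 7 of 9 libraries. The only other 25 kb pair at Igh listed in all 5 Smc1 libraries joined distal V segments, Ighv1-25 and Ighv1-26 with Ighv8-3 and Ighv8-4, with 3 read pairs in F1, 2 and 3 in NOD and 3 and 3 in BL6, and none in the H3K27ac libraries. Summed over the whole stretches, the 3' side of Igha and the proximal V segments shared 3 and 5 read pairs in H3K27ac NOD, 9 and 19 in H3K27ac BL6, 46 in Smc1 F1, 33 and 27 in Smc1 NOD and 44 and 59 in Smc1 BL6. All 9 libraries listed this contact. The constant genes and proximal V segments shared 4 and 7, 9 and 17, 66, 62 and 52, and 39 and 87 read pairs in the same order. Contacts among distal V segments had 0 and 33 read pairs in H3K27ac NOD, 0 and 36 in H3K27ac BL6, 223 in Smc1 F1, 96 and 55 in Smc1 NOD and 170 and 170 in Smc1 BL6. The F1 library had the most although it was the shallowest of the Smc1 libraries.

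At 10 kb, the leading pair by the number of H3K27ac libraries joined Ighe to Ighg2c, with 8 read pairs in the first NOD library and 15 in the first BL6 library. The leading Smc1 pair lay within 1 bin, at Ighg2b, with 0 read pairs in F1, 0 and 35 in NOD and 48 and 42 in BL6. No 10 kb pair in either window was listed in all libraries of an antibody. Of the 10 kb pairs at Igh, 1.67% were listed in 2 or more H3K27ac libraries, against 3.10% over the genome, and 5.29% in 2 or more Smc1 libraries, against 7.82%. At Igk the shares were 1.61% and 1.81%. At 25 kb they were 7.26% with H3K27ac and 17.5% with Smc1 at Igh, and 6.78% and 7.54% at Igk, against 12.8% and 26.1% over the genome. Most listed pairs at these loci were therefore seen in a single library, and single pairs are described here only where they recurred.

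Per Mb, contact at Igk was densest at the constant-gene edge of the window and thinner over the V segments. Ends of listed pairs were counted here as in the stretches of Igh, so these levels are not on the scale of the locus sums of read pairs. The 18.4 kb between V and J had a median of 836 ends in RPM per Mb with H3K27ac (226 to 1480, n = 4). With Smc1 it had 494 (275 to 1240, n = 5). The 3' side of Igkc had 563 (0 to 959) and 573 (347 to 933). These stretches are short, so their per-Mb levels rest on few read pairs. The distal V segments had 21.4 (14.1 to 76.4) with H3K27ac and 148 (111 to 191) with Smc1. The proximal V segments had 29.6 (4.72 to 77.7) with H3K27ac and 88.1 (43.8 to 103) with Smc1. Every Smc1 library lay above every H3K27ac library over the distal V segments, and the groups overlapped over the proximal ones. The J segments and Igkc, within 4.19 kb, held no anchor midpoint in 2 H3K27ac libraries and 3 Smc1 libraries.

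The bin from 70700001, with the J segments, Igkc, Gm46961 and Gm30211, was the highest at Igk on the mean RPM of both antibodies, at 51 and 42 read pairs in H3K27ac NOD, 29 and 96 in H3K27ac BL6, 35 in Smc1 F1, 100 and 86 in Smc1 NOD and 102 and 109 in Smc1 BL6. That bin extends past the window to Rpia, and part of its count lay outside the window. In the second H3K27ac BL6 library the V to J interval, the J and constant gene and the 3' side of Igkc held 18, 0 and 7 ends, against 96 read pairs in the bin. In the first Smc1 NOD library they held 41, 2 and 39, against 100. The bin from 67500001, with Igkv2-137, the outermost V segment, was second, at 2 and 15 in H3K27ac NOD, 15 and 41 in H3K27ac BL6, 23 in Smc1 F1, 54 and 56 in Smc1 NOD and 42 and 89 in Smc1 BL6. Both were listed in all 9 libraries, and among the 33 bins they were the only 2 listed in all 4 H3K27ac libraries. H3K27ac listed nothing in 12 bins. Smc1 listed 25 bins in all 5 libraries and left 2 without a listing, those from 69200001 and 69400001.

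**Figure D3:**
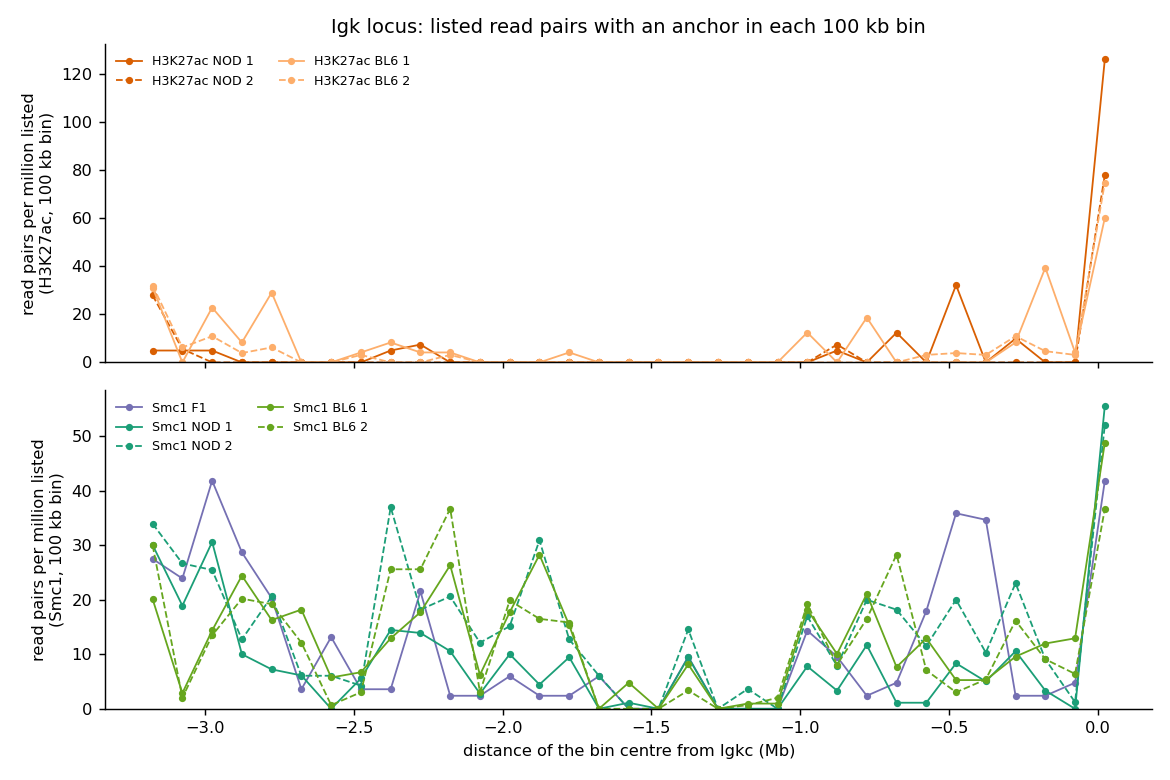
Read pairs in RPM in 100 kb bins along Igk, by distance of the bin centre from Igkc in Mb, with the H3K27ac libraries above and the Smc1 libraries below, 1 line per library and replicate 2 dashed. The bin with the J segments and Igkc, on the right, is the highest on the mean of each antibody and extends past the window to Rpia. H3K27ac lines lie at or near 0 over many V bins.

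Among kappa V segments, 49 of 102 functional ones and 30 of 60 pseudogenes were listed in at least 1 library, with 0 to 8 functional segments per H3K27ac library and 11 to 25 per Smc1 library. The second H3K27ac NOD library listed none. Igkv2-137 was listed in the most libraries, with 0 and 0 read pairs in H3K27ac NOD, 0 and 7 in H3K27ac BL6, 2 in Smc1 F1, 16 and 7 in Smc1 NOD and 2 and 22 in Smc1 BL6. Families again differed, with 11 of 13 Igkv1 and 10 of 12 Igkv12 segments listed, against 8 of 33 Igkv4, 3 of 19 Igkv13 and 1 of 13 Igkv8 segments. The J segments and Igkc, the only kappa constant gene, are a few kb apart, so they share anchors. Igkc itself was listed in both H3K27ac NOD libraries and in neither H3K27ac BL6 library, and with Smc1 in both NOD and both BL6 libraries but not in F1.

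Igh was the more self-contained of the loci. The share of read pairs with both anchors inside Igh was 40.9% (95% interval 33.7 to 48.3, exact Clopper-Pearson) and 50.5% (45.4 to 55.6) in H3K27ac NOD, and 41.7% (34.8 to 48.9) and 35.4% (31.8 to 39.2) in H3K27ac BL6. It was 62.6% in Smc1 F1, 62.0% and 65.3% in Smc1 NOD and 61.2% and 60.3% in Smc1 BL6. The Smc1 and H3K27ac libraries did not overlap. At Igk the share was 26.2% (13.9 to 42.0) and 7.14% (1.50 to 19.5) in H3K27ac NOD, 40.6% (30.7 to 51.1) and 14.1% (8.55 to 21.3) in H3K27ac BL6, 52.3% in Smc1 F1, 52.4% and 61.6% in Smc1 NOD and 49.6% and 59.9% in Smc1 BL6. These intervals cover counting error only, and read pairs of 1 listed pair are not independent. The share was higher at Igh than at Igk in 9 of 9 libraries, by 12.9 ± 13.2 percentage points (SD, n = 9; exact sign-flip permutation test, two-sided p = 0.0039, the smallest possible), and by 14.8 points with the Smc1 technical replicates averaged (exact permutation p = 0.0156, n = 7). Median 3 Mb tiles kept 60.1% to 67.2% inside.

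Contacts that left Igh ran mostly over its constant-gene end, to lower coordinates. That side took 91.8% and 85.2% of the leaving read pairs in H3K27ac NOD, 98.3% and 82.1% in H3K27ac BL6, 63.3% in Smc1 F1, 77.4% and 74.5% in Smc1 NOD and 64.6% and 73.7% in Smc1 BL6. The H3K27ac libraries all lay above the Smc1 libraries. The partner on that side listed in the most libraries with the most read pairs was Pacs2, a membrane traffic gene 126 kb from the window, with 2 and 15 read pairs in H3K27ac NOD, 6 and 8 in H3K27ac BL6, 22 in Smc1 F1, 19 and 14 in Smc1 NOD and 6 and 26 in Smc1 BL6. Kif26a, a kinesin-family gene (79 read pairs, 1018 kb away), Cep170b, a centrosomal protein gene (74), Adssl1, of purine nucleotide synthesis in muscle (50), and Cdc42bpb, a kinase gene (42, 1821 kb away), were also listed with Igh in all 9 libraries. Mta1, of the NuRD chromatin complex (83 read pairs), and Tdrd9, a germline helicase gene (91), were listed in 8. On the V side, Vipr2, a neuropeptide receptor gene 27.4 kb from the window, had 0 and 11 read pairs in H3K27ac NOD, 2 and 25 in H3K27ac BL6, 24 in Smc1 F1, 26 and 14 in Smc1 NOD and 36 and 47 in Smc1 BL6. Ptprn2, a long gene of secretory vesicles, had the most read pairs of any partner, 286 in 7 libraries, at 6 and 0 in H3K27ac NOD, 0 and 18 in H3K27ac BL6, 64 in Smc1 F1, 21 and 30 in Smc1 NOD and 76 and 71 in Smc1 BL6. Counts were not divided by gene length, so Ptprn2 and shorter genes are not compared by level.

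**Figure D4:**
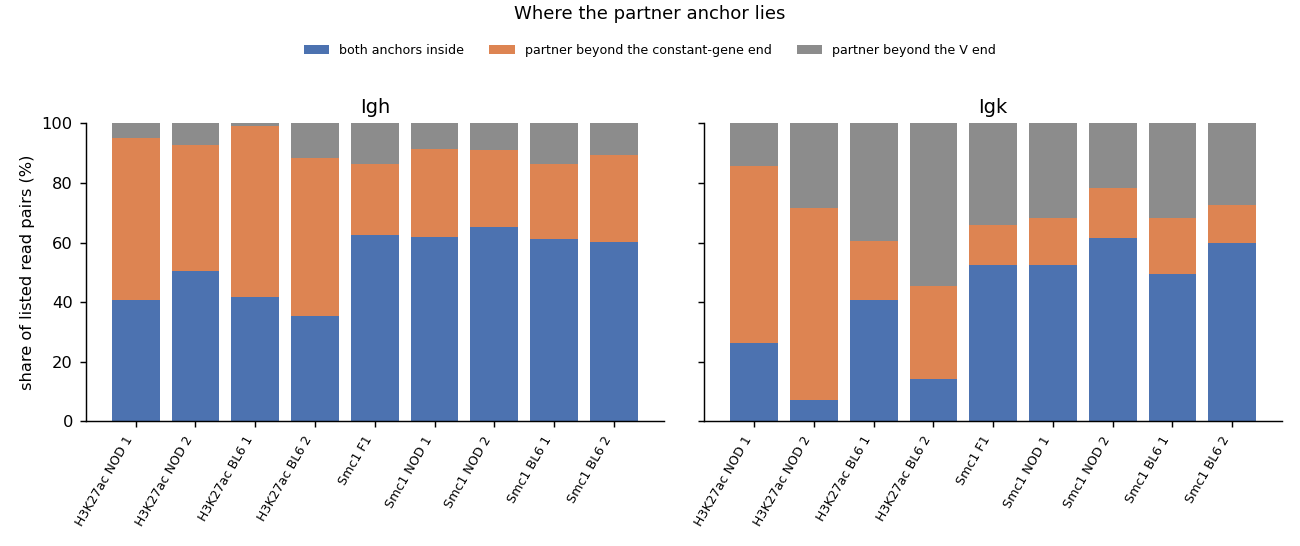
Share of listed read pairs, in percent, with both anchors inside the locus, with the partner beyond the constant-gene end or with the partner beyond the V end, for Igh (left) and Igk (right) in each of the 9 libraries. At Igh the leaving read pairs run mainly over the constant-gene end, while at Igk they do so in the NOD H3K27ac libraries and not in the others.

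Contacts that left Igk did not share that direction across groups. The constant-gene side, at higher coordinates, took 80.6% and 69.2% of the leaving read pairs in H3K27ac NOD, from only 31 and 39 leaving read pairs, and 33.3% and 36.4% in H3K27ac BL6. It took 28.8% in Smc1 F1, 33.3% and 43.4% in Smc1 NOD and 37.0% and 31.8% in Smc1 BL6. The NOD H3K27ac libraries thus lay above all others, on few read pairs, and a 2 against 2 exact permutation test cannot give less than 0.333. Partners beyond the distal V segments were Gng12, a G protein gamma subunit gene (85 read pairs in 8 libraries), and the cytokine receptor genes Il12rb2 (50 in 8) and Il23r (56 in 6). Gng12 had 2 and 0 read pairs in H3K27ac NOD, 2 and 13 in H3K27ac BL6, 4 in Smc1 F1, 11 and 16 in Smc1 NOD and 13 and 24 in Smc1 BL6. Beyond Igkc, Rpia was listed in 7 libraries, with 3 and 0, 0 and 5, 4, 12 and 13, and 13 and 4 read pairs in the same order, and Eif2ak3, which encodes the stress kinase PERK, in 7 with 33. The 10 kb bin of the Gm46961 start paired with chr6:70760001-70770000, which holds the low-coordinate end of Rpia and not its printed start. That pair had 0 and 0 read pairs in H3K27ac NOD and 0 and 5 in H3K27ac BL6. With Smc1 it had 0 in F1, 4 and 5 in NOD and 0 and 0 in BL6.

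Cd8a and Cd8b1, the co-receptor genes these cells were sorted on, lie on the same side of Igk, 623 kb and 573 kb from the window. Their own listed contacts were found in every library: Cd8a had 37 and 39 read pairs in H3K27ac NOD, 169 and 28 in H3K27ac BL6, 97 in Smc1 F1, 192 and 34 in Smc1 NOD and 90 and 211 in Smc1 BL6. Contacts between Igk and Cd8a were listed in 2 libraries with 4 read pairs in all, and between Igk and Cd8b1 in 2 libraries with 7. Listed pairs span up to 2 Mb, and the distal V segments of Igk lie farther than that from both genes. Contacts of the distal V segments with these genes could therefore not be listed. From the rest of Igk, few were listed at this depth.

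Between strains, no difference in the summed contact of either locus passed the test. Smc1 contact at Igh in NOD against BL6 had a log2 fold change of -0.27 (SE 0.35, approximate 95% interval of the fold 0.514 to 1.34). Igk had one of -0.05 (SE 0.41, 0.556 to 1.69). Their adjusted p was 0.87 and 0.97 by edgeR's quasi-likelihood test with Benjamini-Hochberg adjustment over all 820 tiles and loci. All fold intervals use a normal quantile with the SE and are narrower than the test's few degrees of freedom would give. The Smc1 replicates are technical, with 1 biological replicate per strain, so their SE and p measure technical spread. In the same fit 0.366% of features were called. H3K27ac contact in NOD against BL6 had 0.51 at Igh (SE 0.52, 0.703 to 2.88) and -0.49 at Igk (SE 0.87, 0.218 to 2.32), both with an adjusted p of 1.00, where 0% of features were called (0 of 770 by edgeR, 4 by DESeq2, and 7 before adjustment at 0.05). Without Smc1 NOD replicate 1 the Igh value was -0.47 with an edgeR adjusted p of 0.0080, in a fit where 303 of 823 features were called. A p above the threshold does not show that the strains were alike. By 100 kb bins, 0 of 26 tested Igh bins and 0 of 27 Igk bins were called with Smc1, where 0.137% of all bins were. Before adjustment 1 and 2 of them stood under 0.05, as did 4.12% of all bins. DESeq2 called 0 of them, and 66 of 23724 bins over the genome. Without Smc1 NOD replicate 1 there were 2 calls, where 1335 of 23452 bins were called. The lowest unadjusted p was at the Igk bin from 67600001, with a log2 fold change of 3.22 (SE 0.81) and an adjusted p of 0.64. With H3K27ac, 0 of 12 Igh bins and 0 of 2 Igk bins were called, where 0% of all bins were. Before adjustment 0 of them stood under 0.05, as did 0.421% of all bins. DESeq2 called 0 of them, and 28 of 21130 bins over the genome. The difference between the strain differences of the antibodies was tested as well: edgeR's interaction term was 0.74 at Igh (SE 0.54) and -0.49 at Igk (SE 0.89), with an adjusted p of 1.00 at both by edgeR, where 0% of features were called. That does not show that the strain difference was alike with both antibodies.

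Between antibodies, Igk had lower H3K27ac than Smc1 values in both strains, but no difference passed the test. At Igk the log2 fold change of H3K27ac against Smc1 was -1.10 in NOD (SE 0.81, fold 0.155 to 1.41, adjusted p = 0.40) and -0.78 in BL6 (SE 0.65, 0.242 to 1.40, adjusted p = 0.47) by edgeR. At Igh it was 0.47 in NOD (SE 0.59, 0.620 to 3.11, adjusted p = 0.60) and -0.40 in BL6 (SE 0.38, 0.453 to 1.28, adjusted p = 0.53), also by edgeR. Of all features, 4.04% were called in NOD and 0% in BL6, where edgeR put 203 of 820 under 0.05 before adjustment and DESeq2 called 93. Without 1 of the H3K27ac BL6 libraries the call changed, to -1.28 at Igk without replicate 1 (edgeR adjusted p = 7.4e-07, 562 of 824 features called) and to -0.40 at Igh without replicate 2 (adjusted p = 0.031, 671 of 824 called). The comparison in BL6 and NOD sets biological against technical replicates, and libraries of unlike depth. In 100 kb bins, 0 of 15 Igk bins and 0 of 21 Igh bins were called in NOD, and 0 of 20 and 0 of 25 in BL6, where 0% of all bins were called in each, and DESeq2 called 1 Igh or Igk bin in BL6, among 1389 called of 23667, and 0 in NOD, among 2382 called of 23636. Called Igh and Igk bins numbered 16 in BL6 without H3K27ac BL6 replicate 1, where 10867 of 23365 bins were called over the genome, and 21 without replicate 2, where 11942 of 23369 were. In NOD they numbered 2 without H3K27ac NOD replicate 1, where 5228 of 23067 bins were called, and 5 without replicate 2, where 7360 of 23060 were. The smallest adjusted p was 0.0505, shared by Igk V bins in NOD such as that from 67800001, with a log2 fold change of -6.62 (SE 1.25), and 0.0909 at Igk in BL6. At an unadjusted p under 0.05 stood 9 of the 15 Igk bins and 3 of the 21 Igh bins in NOD, where 27.4% of all bins did, and 8 of 20 and 3 of 25 in BL6, where 5714 of 22886 did. The median log2 fold change of the tested bins was -3.32 at Igk and -0.17 at Igh in NOD, against -0.37 over all bins, and -1.87 and -0.95 in BL6, against -0.18. A bin with no H3K27ac listing takes part in these medians at a fitted value that depends on the prior count. A bin was tested if the libraries of 1 antibody alone held enough read pairs. Bins such as that from 67800001, with 0 and 0 H3K27ac read pairs in NOD, thus entered through Smc1, which set the direction of their fold change. The medians and the counts under 0.05 of the tested bins are therefore no support for a difference at Igk.

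The F1 library had more listed Smc1 contact at Igh than any parental library. Its Igh level, 506 RPM per Mb, was 2.45 times the mean of the 4 parental Smc1 libraries, whose levels ran from 168 to 247. That ratio ranked 2 of 812 tiles and loci with at least 200 parental read pairs, whose median ratio was 0.99. At Igk the ratio was 1.00, at rank 393. It was 1.59 at the lambda light chain locus Igl, at rank 8, 1.57 at Tcrb, at rank 10, and 0.94 at Tcra, at rank 496. In 28 of 29 Igh bins the F1 library lay above all 4 parental libraries, with a median bin ratio of 2.67. At Igk it lay above all of them in 6 of 33 bins and below all in 10. With 1 F1 library there is no replicate, so these ratios carry no test.

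The F1 excess ran over the whole of Igh and was smaller beyond its edges. Counted as ends of listed pairs, F1 lay above all parental libraries in all 7 stretches. The distal V segments had 594 ends in RPM per Mb, against 108 to 234 in the parental libraries. The proximal V segments had 896, against 328 to 476. The D to V interval had 2124, against 433 to 872. The constant genes had the smallest ratio, 1.35, with 2066 in F1, against 1162 to 1764. Over the 1 Mb below the window the summed ratio was 1.33 and over the 1 Mb above it 1.12, against 2.50 over the window. The genome used for mapping did not move the Igh value: F1 had 1214 read pairs at Igh when mapped to NOD and 1208 when mapped to BL6, and 96.1% of the 10 kb pairs in either table were in the other. At Igk it had 291 when mapped to NOD and 218 when mapped to BL6, a ratio of 1.33 (1.12 to 1.60, counting error only), and 49.1% of the NOD-mapped pairs were shared, as were 63.2% of the BL6-mapped ones. Over the whole genome 88.2% and 89.7% were shared.

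**Figure D5:**
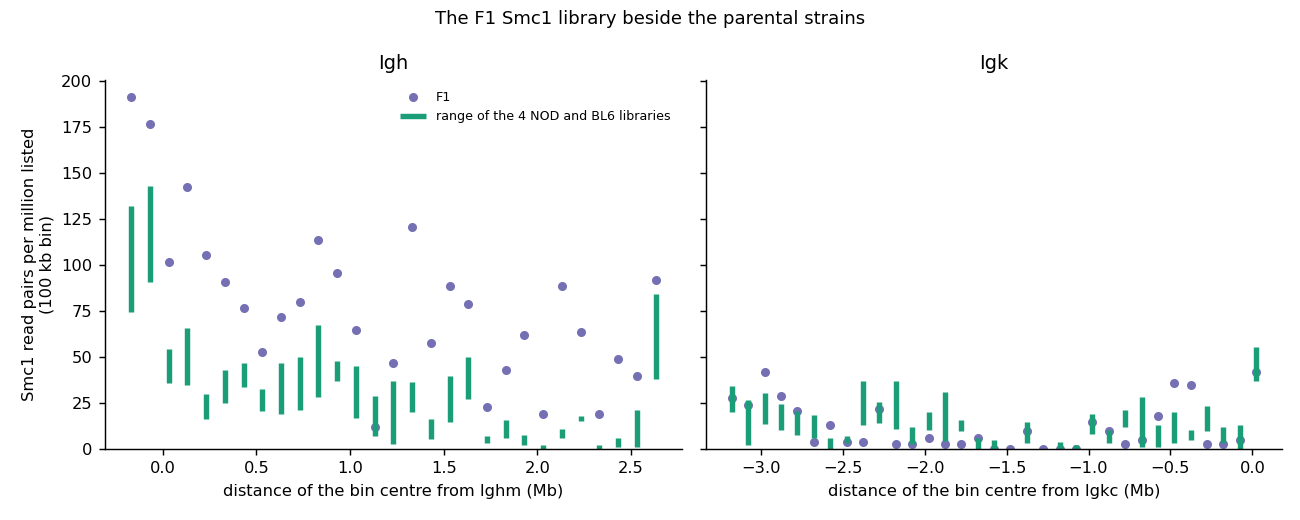
Smc1 read pairs in RPM in 100 kb bins of Igh (left) and Igk (right), by distance of the bin centre from Ighm or Igkc in Mb; points are the F1 library and bars the range of the 4 NOD and BL6 libraries. At Igh 28 of 29 points lie above their bar, and at Igk 6 of 33 do.

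The genes that carry out or direct immunoglobulin rearrangement were read in the same tables, by anchors within 5 kb of a gene end. Rag1, a subunit of the recombinase, had 7 and 2 read pairs in H3K27ac NOD, 7 and 19 in H3K27ac BL6, 37 in Smc1 F1, 49 and 8 in Smc1 NOD and 56 and 42 in Smc1 BL6. Rag2, its partner, had 10 and 13, 8 and 30, 5, 14 and 10, and 30 and 53. Both were listed in all 9 libraries. Of 19 genes of V(D)J recombination 16 could be tested for Smc1 in NOD against BL6 and 0 passed (0 at an unadjusted p under 0.05), where 0.0458% of genes did. Of 26 B cell regulator and B cell marker genes 25 could be tested there and 0 passed (3 at an unadjusted p under 0.05, as were 667 of all 17452 genes), and of 11 cohesin and CTCF genes 8 could and 0 passed (0 at an unadjusted p under 0.05). In the other 3 comparisons, where 0% of genes passed, 0 genes of these lists passed either by edgeR. There 0 or 1 of each list stood under 0.05 before adjustment, as did 0.873% to 5.21% of all genes. DESeq2 called 0 of the listed genes in all 4 comparisons, and 8 to 54 genes over the genome. The neighbours of Igh (20 genes) and of Igk (17 genes) also had 0 calls in all 4 comparisons. Before adjustment 1 and 0 of them stood under 0.05 in each, where 0.873% to 5.21% of all genes did.

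Markers were checked by contacts, since no RNA was measured. Of 15 genes of CD4+ CD8+ thymocytes, 12 to 15 were listed per library, at a summed 726 to 2013 RPM in H3K27ac libraries and 174 to 747 in Smc1 libraries. The B cell list had 21 to 25 genes listed per library. Its sum was 795 to 1012 RPM in H3K27ac libraries, and 650 in Smc1 F1, 510 and 753 in Smc1 NOD and 494 and 711 in Smc1 BL6, so the F1 library lay within the parental range. A contact is no measure of a gene's activity.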

How the data were processed

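HiChIP was done on sorted CD4+ CD8+ mouse thymocytes with antibodies to H3K27ac or Smc1, with MboI digestion, per the labels' protocols. HiC-Pro, Juicer 1.7.6, MACS and the GRCm38 genome are named, per the submitters' processing notes, without saying which step used which, and the interaction caller is not given in the sources used here. The deposited tables give, for each pair of anchors on 1 chromosome, a count of supporting read pairs and a q-value made by the authors before deposit, and stop at q-values of 0.05 and at 2 read pairs per interaction, as checked on the values. The count of read pairs was used as deposited, and the NOD tables are in reference coordinates per the labels. The anchor read counts that the authors deposited beside them were used only to describe anchors.

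The members and the gene lists were chosen with earlier results of these data known. Read pairs were summed over the Igh and Igk windows, the windows of Igl, Tcra and Tcrb, 3 Mb tiles, 100 kb bins and gene ends (within 5 kb), each interaction counted once per feature. The F1 library was used once, from its table mapped to BL6. Gene and segment positions and promoter sequences came from RefSeq tables (GRCm38.p6). Group comparisons used edgeR 4.0.16 (TMM scaling, filterByExpr, robust quasi-likelihood test, library size as all listed read pairs) with Benjamini-Hochberg adjustment over all features of a fit, and the alternative test was DESeq2 1.42.0, in R 4.3.3. A feature was called at an adjusted p under 0.05. Differences between loci within a library used (read pairs + 1) per Mb on the log2 scale and an exact sign-flip permutation test in scipy 1.17.1 and numpy 2.4.6. Intervals of shares are exact binomial at 95%. Intervals of fold changes use a normal quantile with the SE and are approximate. The scripts were tested on simulated data with known changes. Of 4-fold changes, H3K27ac in NOD against BL6 recovered 37.4% in tiles and 0% in bins and in genes. Smc1 in NOD against BL6 recovered 99% in tiles, 72% in bins and 8.25% in genes. H3K27ac against Smc1 recovered 9% in bins in BL6, 1% in bins in NOD and 0% in genes in both. In those settings 0 calls do not show that bins or genes were alike. Named bins were the 5 highest per locus and antibody by mean RPM. Named contacts were those listed in the most libraries, then with the most read pairs, and named partner genes followed the same order. Contacts at 25 kb and averaged technical replicates were added after seeing the data. Cd8a and Cd8b1 were named as markers from the lists.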

Additional observations from a re-analysis of the deposited data

Results flagged for a closer look

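Of 14 sets of library values looked at for a single value standing apart from the rest, 2 held one, where chance gives about 1 in 20. At Igh the F1 Smc1 library had 506 RPM per Mb, and the nearest of the other Smc1 libraries, the first BL6 one, had 247. The Igk level of the same library, 80.1, lay between those of the parental libraries. The second H3K27ac NOD library had a share of read pairs inside Igh that exceeded its share inside Igk by 43.4 percentage points, and the next library, the second H3K27ac BL6 one, had 21.4. The Igk share of that NOD library rested on 42 read pairs, of which 7.14% stayed inside.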

How the results depend on the processing

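Of 68 values of the locus sums under other settings, 66 kept their direction and their side of the threshold, as did 31 of 35 within-library differences and all 8 counts of called listed genes, which stayed at 0. The Igk sum for Smc1 in NOD against BL6 (-0.05) changed sign to 0.27 with at least 3 read pairs per interaction and to 0.046 with both anchors required in the locus. The Igk minus Tcra difference (-0.05) changed sign to 0.070 with anchors at least 10 kb apart, 0.26 by listed pairs, 0.0027 with F1 mapped to NOD and 0.14 by anchor ends. Called Igh and Igk bins, 0 in each comparison, were 1 by DESeq2 for H3K27ac against Smc1 in BL6 (1389 of 23667 bins called over the genome), and in NOD 6 without TMM scaling (2940 of 21307) and 6 with anchors at least 10 kb apart (2578 of 21206). The F1 log2 ratio of NOD-mapped over BL6-mapped read pairs at Igk, 0.42, was 0.68 with at least 3 read pairs. The cause was not tested.

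Leaving out 1 library at a time gave these ranges. For Smc1 in NOD against BL6, Igh ran from -0.47 to -0.080, Igk from -0.33 to 0.19 and called bins from 0 to 2. For H3K27ac in NOD against BL6, Igh ran from 0.27 to 0.70, Igk from -0.89 to 0.045 and called bins stayed at 0. For H3K27ac against Smc1 in BL6, Igh ran from -0.52 to -0.18, Igk from -1.28 to -0.17 and called bins from 0 to 21. For the same in NOD, Igh ran from 0.33 to 0.70, Igk from -1.53 to -0.73 and called bins from 0 to 5. Igk minus Tcra ran from -0.22 to 0.16 and the Igh minus Igk inside share from 9.09 to 14.5 points. With a library left out, 1 group has 1 library, which is assumed to vary like the other group. In that way Igh passed the test for Smc1 in NOD against BL6 without Smc1 NOD replicate 1 (-0.47, edgeR adjusted p = 0.0080), in a fit that called 303 of 823 tiles and loci. For H3K27ac against Smc1 in BL6, Igk passed without H3K27ac BL6 replicate 1 (-1.28, adjusted p = 7.4e-07, 562 of 824 called), and Igh without H3K27ac BL6 replicate 2 (-0.40, adjusted p = 0.031, 671 of 824 called).

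The replicate numbers do not pair libraries by the labels, and the correlation of same-numbered deviations was 0.09 and 0.74 for Smc1 and H3K27ac in NOD against BL6, and -0.18 and -0.41 for H3K27ac against Smc1 in BL6 and NOD. With a replicate block no Igh or Igk sum passed (Igk at -1.12 in NOD and -0.85 in BL6 for H3K27ac against Smc1) and 0 of their bins did. Over all features the block called 13 tiles and 116 bins for Smc1 in NOD against BL6, 5 and 33 for H3K27ac in NOD against BL6, and 0 and 5 in BL6 and 0 and 0 in NOD for H3K27ac against Smc1. With the replicate block crossed, chosen after seeing the data, the last pair of comparisons called 0 tiles and 0 bins in BL6 and 111 and 11 in NOD.

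Depth limits these loci: H3K27ac libraries list 42 to 128 read pairs at Igk, listing needs at least 2, and what lay under that limit is unknown.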
